A study of Mus musculus with 6 samples.

Results

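Conjugation enzymes attach a polar group to drugs, hormones, bilirubin and reactive metabolites, which the cell then exports into bile or blood. Glutathione S-transferases use glutathione, UDP-glucuronosyltransferases use UDP-glucuronate, and cytosolic sulfotransferases use the sulfate donor PAPS. Hepatocytes make most of these enzymes, in amounts that depend on the position of the cell in the lobule, on nuclear receptors such as CAR and PXR, and on the transcription factor NRF2. The members were taken by symbol, as every gene of the expression table whose name begins with a class of Gst, with Mgst, with Ugt1 to Ugt3 or with Sult1 to Sult5. This gave 70 of the 34745 listed genes. There were 25 genes of glutathione conjugation, 21 of glucuronide conjugation and 24 of sulfate conjugation, and 7 of the 70 carry the symbol of a pseudogene. The members differ in role: Gstz1 works in tyrosine breakdown, Gstk1 is an enzyme of mitochondria and peroxisomes, and Ugt3a enzymes use other UDP-sugars.

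The 70 genes were read in 6 liver tumors, 3 from Prmt3f/f mice (replicates 7, 66 and 71, labelled WT) and 3 from Prmt3LKO mice (replicates 92, 93 and 94, labelled Prmt3-KO), to ask how the loss of Prmt3 in hepatocytes changed gene expression in tumors. All mice carried floxed Prmt3 alleles, received DEN (25 mg/kg) when 2 weeks old and then, from 6 weeks, 10% CCl4 (0.5 ml/kg), and were killed at 26 weeks. Prmt3LKO mice also carried Alb-Cre, which acts in hepatocytes, so that Prmt3 of other cells of the tumor remained intact. The mice were male. Whether the 3 tumors of a group came from 3 mice is not given in the sources used here, so p-values measure the spread between these tumors.

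Between 18440244 and 27976598 reads were counted per tumor, of which 0.700% to 1.14% fell on the 70 genes. Levels within a gene are given as CPM (counts scaled to the size of the library, with TMM). Levels are compared between genes as FPKM, which also divides by gene length. CPM across genes served to choose the genes to name and to form sums of classes and lists. Prmt3 was between 6.60 and 10.2 CPM in Prmt3f/f tumors and between 2.03 and 3.82 CPM in Prmt3LKO tumors. The difference of Prmt3 was -1.55 on the log2 scale with an SE of 0.29, an unadjusted p of 0.000827 and an adjusted p of 0.592 by edgeR's quasi-likelihood test. Among the 13892 genes tested, 0 passed the limits for a call (an adjusted p below 0.05 together with a change of 2-fold or more upward, or to 0.5-fold or less), and 912 had an unadjusted p under 0.05. Hepatocyte markers were high in every tumor, as Alb lay between 108202 and 164722 CPM. Prmt3f/f replicate 7 stood apart from the other tumors, with the highest level of 23.7% and the lowest level of 23.6% of all genes tested, where an even spread over 6 tumors gives 16.7%. Results are therefore given with and without it where they turn on it.

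Of the 70 members, 50 had enough counts to be tested, namely 22 of glutathione, 18 of glucuronide and 10 of sulfate conjugation. A further 11 had no count in any tumor, namely Gstt4, Ugt2a1, Ugt2a2, Sult1c1, Sult3a1, Sult2a6 and 5 pseudogenes of Sult1c2 and Sult2a. The remaining 9 had counts and did not pass the filter, namely Ugt1a8, Mgst2, Gsto2, Sult5a1, Sult2a3, Sult2a4, Sult2a5, Sult2a7 and Sult2a-ps1. With 3 counts as the limit of detection, a gene without counts may still have had up to 0.171 CPM in the shallowest and 0.105 CPM in the deepest tumor (counting error alone).

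The promoters below are shown because the 9 Ugt1a genes on chromosome 1 share their last exons and differ in their first, so that each first exon has a start of its own. They are stretches of 97 to 120 bases upstream of the start, 5′ to 3′ on the strand of the gene, from RefSeq on GRCm38.p6. Where the files place the start further upstream, the stretch stops there. Capitals mark the letters GTTAATNAT or their reverse complement, a motif like that of the hepatocyte factor HNF1, which was found on either strand in 0.801% of the 32851 promoter windows of 300 bases and in 8 of the 67 windows of members (11.9%). RefSeq windows were matched for 55 of the 70 members. The first 4 sequences hold the motif:
Ugt1a1, chr1:88211839-88211958, plus strand: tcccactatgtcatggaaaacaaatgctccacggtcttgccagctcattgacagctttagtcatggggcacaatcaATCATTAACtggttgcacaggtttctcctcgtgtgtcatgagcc
Ugt1a9, chr1:88070659-88070778, plus strand: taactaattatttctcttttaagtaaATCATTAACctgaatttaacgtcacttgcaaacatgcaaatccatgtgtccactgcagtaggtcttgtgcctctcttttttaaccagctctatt
Ugt1a10, chr1:88055291-88055387, plus strand: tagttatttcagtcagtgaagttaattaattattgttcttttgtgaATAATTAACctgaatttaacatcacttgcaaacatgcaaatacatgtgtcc
Sult1d1, chr5:87569028-87569126, minus strand: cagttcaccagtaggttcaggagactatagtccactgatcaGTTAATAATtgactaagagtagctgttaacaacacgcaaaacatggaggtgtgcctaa

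The other 4 windows with the motif belong to Sult2a3, Sult2a4, Sult2a5 and Sult2a6, which were at or near 0 counts in these tumors. These are neighboring genes of the same family. The stretches of Ugt1a9 and Ugt1a10 are also nearly alike around the motif. The member windows that hold it are thus not independent, and their share cannot be read as a trait of the whole set. The promoters of the 3 members with the lowest p-values between genotypes follow, and these letters are not in any of them:
Ugt1a2, chr1:88200491-88200600, plus strand: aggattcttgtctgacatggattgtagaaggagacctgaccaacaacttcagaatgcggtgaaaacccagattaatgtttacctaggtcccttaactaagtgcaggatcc
Ugt1a6a, chr1:88134689-88134808, plus strand: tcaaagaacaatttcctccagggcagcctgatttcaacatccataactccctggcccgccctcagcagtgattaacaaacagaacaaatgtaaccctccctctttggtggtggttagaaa
Sult1a1, chr7:126676433-126676538, minus strand: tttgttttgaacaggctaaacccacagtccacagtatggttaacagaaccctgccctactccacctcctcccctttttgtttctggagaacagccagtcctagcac

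The core of the antioxidant response element, TGACNNNGC, to which NRF2 binds, was found on either strand in 12.4% of all windows and in 4 of the 67 member windows (5.97%), those of Gsta3, Gstm5, Gstm7 and Mgst1. The core of the xenobiotic response element, GCGTG, was found in 32.4% of all windows and in 13 member windows (19.4%), which belong to 11 genes. No match of the HNF1-like letters overlapped a match of either core. Matches are a description of these letters and not of binding.

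Few conjugation genes parted the genotypes, while many spread widely between tumors of the same genotype. No member passed the limits in either direction, beside 0% of all genes tested lower and 0% higher. At an unadjusted p under 0.05, 1 of 50 members was lower in Prmt3LKO tumors, beside 4.37% of all genes tested, and 2 were higher, beside 2.2%. The same 3 members, Sult1a1 lower and Ugt1a2 and Ugt1a6a higher, were the members whose groups did not overlap. This is 2% and 4% of the members tested, beside 6.6% of all genes tested that lay lower without overlap and 5.56% that lay higher. Both shares are below this background. The smallest adjusted p of a member was 0.592.

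The median log2 fold change was 0.12 over the 50 members tested, beside 0.00037 over all genes tested, with 35 members above 0 and 15 below. It was 0.072 for glutathione, 0.17 for glucuronide and 0.099 for sulfate conjugation. The median over all 50 was -0.016 without Prmt3LKO replicate 94, -0.012 without Prmt3f/f replicate 66 and 0.27 without Prmt3f/f replicate 7, so its sign rested on single tumors. The SD of log2 CPM within a genotype had a median of 0.49 over the members tested and of 0.28 over all genes tested. The highest tumor was over 4-fold above the lowest for 15 of the 50 members (30%), beside 9.63% of all genes tested.

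**Figure D1:**
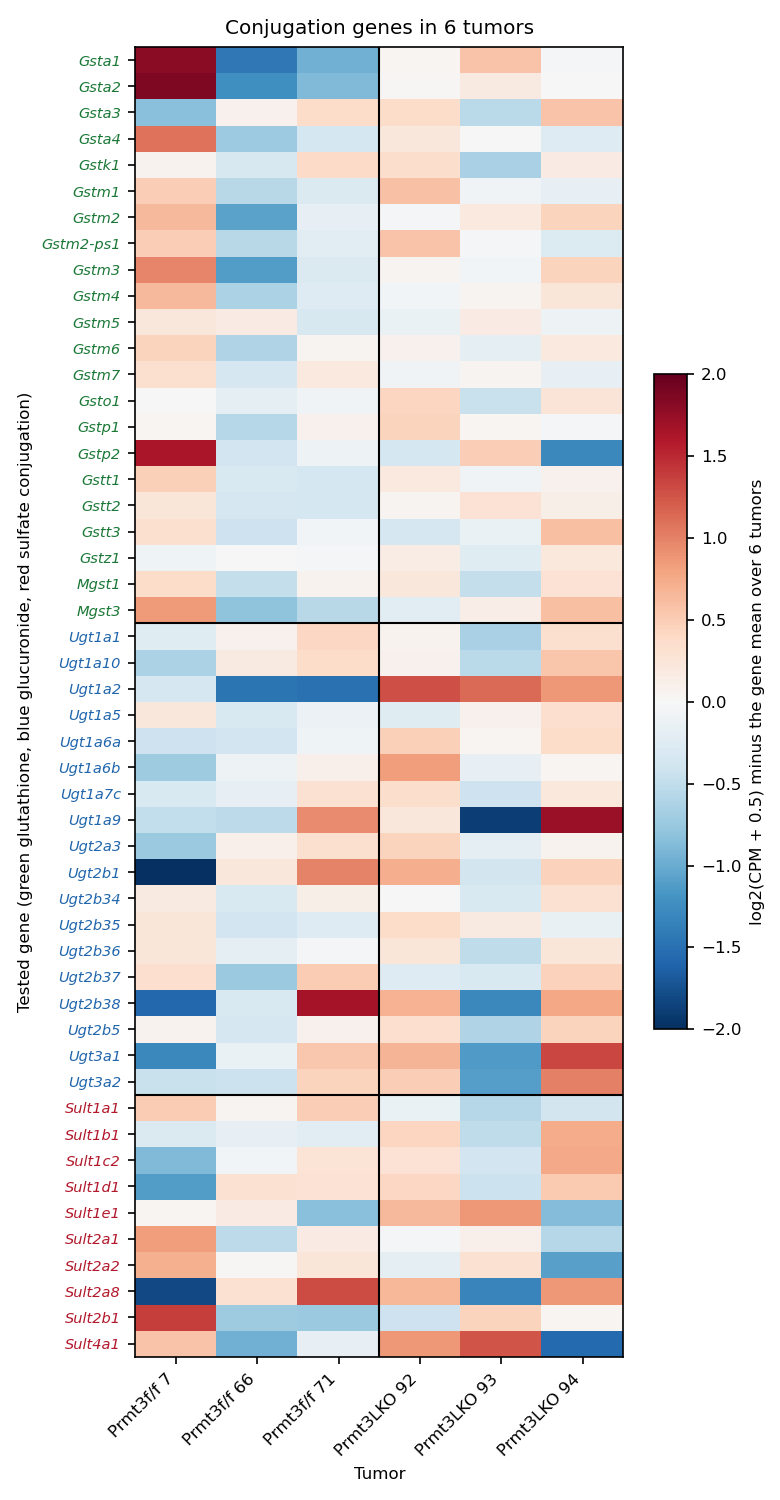
Level of the 50 tested members in each of the 6 tumors, as log2(CPM + 0.5) minus the mean of the gene over the tumors, with genes in rows by class and tumors in columns. Red is above and blue is below the mean of the gene. Prmt3f/f replicate 7 is red for most glutathione genes, while Ugt2b1, Ugt2b38 and Sult2a8 are blue in it.

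Glutathione conjugation was the most abundant class. Gstm1, a mu class transferase of the hepatocyte cytosol, was the highest of the members per length with a mean of 828 FPKM over the 6 tumors, followed by Gstp1 of the pi class at 612 FPKM. Gstm1 stood at 3199, 1562 and 1869 CPM in Prmt3f/f replicates 7, 66 and 71 and at 3420, 2188 and 2038 CPM in Prmt3LKO replicates 92, 93 and 94. The tumors of the 2 genotypes overlapped in Gstm1, whose log2 fold change was 0.21 with a 95% confidence interval of -0.59 to 1.0.

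Gstp1, a cytosolic transferase encoded next to its near copy Gstp2 on chromosome 19, was at 469, 305 and 484 CPM in Prmt3f/f tumors and at 617, 467 and 443 CPM in Prmt3LKO tumors. Its log2 fold change was 0.28 (95% confidence interval -0.28 to 0.84). Mgst1, a transferase of the endoplasmic reticulum and mitochondrial membranes, was at 1110 ± 309 CPM in Prmt3f/f and 1132 ± 303 CPM in Prmt3LKO tumors (SD, n = 3 each). Its log2 fold change was 0.03 (-0.66 to 0.72). Gstz1 was the steadiest of these genes, between 335 and 459 CPM over the 6 tumors. None of these genes parted the genotypes.

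Gsta1 and Gsta2 of the alpha class, on chromosome 9, had the widest range of the tested glutathione genes. Gsta2 (chr9:78331018-78355788 in the files, GRCm38), which detoxifies products of lipid peroxidation, was at 365 CPM in Prmt3f/f replicate 7, at 42.5 CPM in replicate 66 and at 54.1 CPM in replicate 71, and at 102, 113 and 101 CPM in Prmt3LKO replicates 92, 93 and 94. The 3 Prmt3LKO tumors thus lay close to each other, inside the range of the Prmt3f/f tumors. Its log2 fold change was -0.55 (95% confidence interval -2.29 to 1.19) over all tumors and 1.12 with an SE of 0.16 without Prmt3f/f replicate 7 (unadjusted p = 0.00032, adjusted p = 0.377 by edgeR). Gsta1 had the same order among the Prmt3f/f tumors, with 53.9, 5.27 and 7.49 CPM in Prmt3f/f and 15.5, 22.4 and 14.6 CPM in Prmt3LKO tumors. Its log2 fold change was -0.34 over all tumors and 1.44 without replicate 7. Gsta1 and Gsta2 were highest in the tumor left out, which by itself raises the values without it.

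Gsta1 and Gsta2 share sequence with other genes, most with the predicted genes Gm3776 and Gm10639. Of the stretches of 100 bases in the longest Gsta1 transcript, 81.8% occur in a transcript of another gene, and 35.0% of those of Gsta2. How their shared reads were assigned is not known. With the 2 genes summed, the tumors stood at 419, 47.7 and 61.6 CPM in Prmt3f/f and 117, 136 and 115 CPM in Prmt3LKO, in the same order. Gsta3, which conjugates the reactive epoxide of aflatoxin in mice, was spread the other way, at 256, 484 and 589 CPM in Prmt3f/f and 591, 314 and 678 CPM in Prmt3LKO tumors, lowest in Prmt3f/f replicate 7.

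Gsta4, Gstm3 and Gstp2 were also highest in Prmt3f/f replicate 7. Gsta4, which conjugates 4-hydroxynonenal, was at 192 CPM there and between 54.7 and 106 CPM in the other 5 tumors. Gstm3 was at 566 CPM there and between 132 and 394 CPM elsewhere, and Gstp2 at 66.1 CPM there and between 8.34 and 29.8 CPM elsewhere. In all, 13 of the 22 glutathione genes tested (59.1%) were highest in Prmt3f/f replicate 7, beside 23.7% of all genes tested, and 13 (59.1%) were lowest in Prmt3f/f replicate 66, beside 15.3%, with 9 genes in both sets. The most and the least abundant tumors of this class were thus of the same genotype.

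Genes that supply glutathione or respond to NRF2 did not part the genotypes at an unadjusted p under 0.05. Of 12 genes of glutathione synthesis and turnover, 11 were tested and 5 (45.5%) were highest in Prmt3f/f replicate 7, beside 23.7% of all genes tested. Of 12 NRF2 target genes outside the transferase families, 4 (33.3%) were highest in it, which is nearer to that background. The following 2 genes were picked with their values in view. Nqo1, a quinone reductase and standard NRF2 target, was at 101 CPM in Prmt3f/f replicate 7 and between 14.7 and 44.8 CPM in the other tumors. Gclc, the catalytic subunit of the first enzyme of glutathione synthesis, was at 656 CPM there and between 303 and 573 CPM in the others.

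Leaving out Prmt3f/f replicate 7 changed the count of members more than leaving out any other tumor. Without it, 13 of 50 members (26%) were higher in Prmt3LKO tumors at an unadjusted p under 0.05, beside 3.99% of all genes tested in that fit, and 1 member was lower, beside 4.91%. The 13 were Gsta1, Gsta2, Gsta4, Gstm2, Gstm3, Gstm4, Mgst3, Gstt1, Gstt2, Ugt1a2, Ugt1a6a, Ugt2b35 and Sult2b1. Of these, Gsta1, Gsta2, Gsta4, Gstm2, Gstm3, Gstm4, Mgst3, Gstt1 and Sult2b1 were highest in the tumor left out. Leaving it out raises their fold changes by itself, so the share of 26% cannot be read apart from that choice. None passed an adjusted p of 0.05 by edgeR, and the smallest adjusted p was 0.0993, of Ugt1a2. With any other tumor left out, between 2 and 5 members were higher and 1 or 2 were lower. The comparison then rests on 2 Prmt3f/f tumors, of which replicate 66 was the lowest of the 6 in most glutathione genes.

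**Figure D2:**
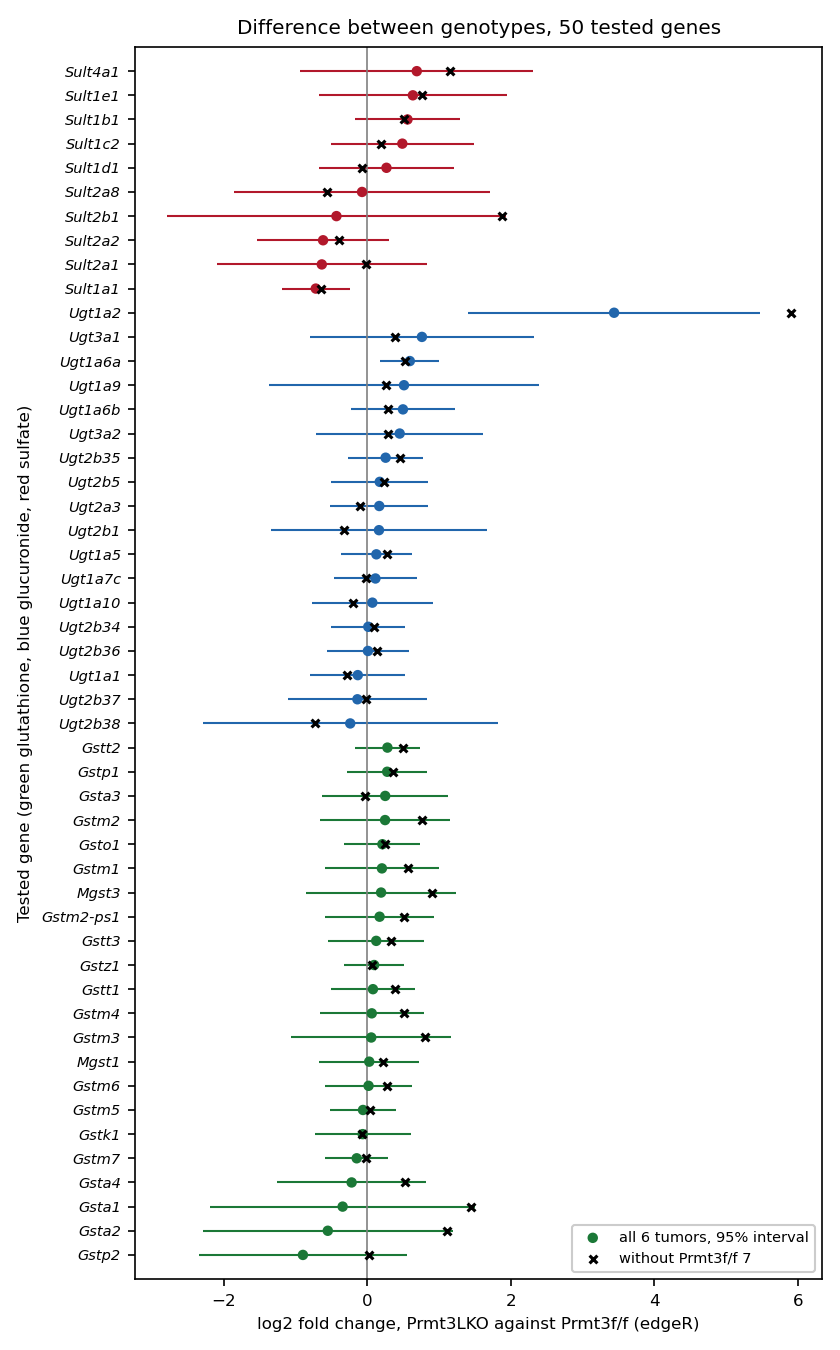
Log2 fold change of the 50 tested members between Prmt3LKO and Prmt3f/f tumors by edgeR, with genes in rows by class. Points and lines give the estimate and 95% confidence interval over 6 tumors, and crosses the estimate without Prmt3f/f replicate 7. Gsta1 and Gsta2 move from below 0 to 1.44 and 1.12 without that tumor, while Sult1a1 and Ugt1a6a stay on their side of 0.

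The pseudogene Gstm2-ps1 on chromosome 5 carried counts with a mean of 334 FPKM. Its count was between 8.59% and 9.63% of that of Gstm1 in each of the 6 tumors, while Gstm1 itself varied from 1562 to 3420 CPM. In sequence, 12.9% of its stretches of 100 bases occur in transcripts of other genes, most often Gstm1. Whether any of its counts come from reads of Gstm1 was not tested. Likewise, Gstp1 and Gstp2 share 52.8% and 54.6% of their stretches with each other. With the Gstp counts summed, the log2 fold change was 0.22 with an SE of 0.25.

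Glucuronide conjugation was led by Ugt2b5 with a mean of 258 FPKM, Ugt1a1 with 139 FPKM and Ugt2b36 with 122 FPKM. Ugt1a1, which conjugates bilirubin, was at 254, 320 and 401 CPM in Prmt3f/f and at 319, 193 and 378 CPM in Prmt3LKO tumors, with a log2 fold change of -0.13 (95% confidence interval -0.79 to 0.53). The Ugt2b genes on chromosome 5 encode enzymes for steroids, bile acids and drugs. Ugt2b5 was at 490, 372 and 497 CPM in Prmt3f/f and at 590, 310 and 635 CPM in Prmt3LKO tumors. Ugt2b36 and Ugt2b34 had log2 fold changes of 0.01 (-0.56 to 0.59) and 0.02 (-0.50 to 0.53). The genotypes overlapped in each of these 4 genes.

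Ugt1a6a and Ugt1a2 were the members that lay higher in Prmt3LKO tumors. Ugt1a6a (chr1:88134809-88218997, plus strand), which conjugates small phenols, was at 79.3, 81.2 and 100 CPM in Prmt3f/f replicates 7, 66 and 71 and at 149, 109 and 136 CPM in Prmt3LKO replicates 92, 93 and 94. The lowest Prmt3LKO tumor was above the highest Prmt3f/f tumor. Its log2 fold change was 0.59 with an SE of 0.18 (unadjusted p = 0.0108, adjusted p = 0.606 by edgeR), and the 6 fits that each lack 1 tumor gave 0.50 to 0.71. Its neighbor Ugt1a6b was at 44.7, 69.1 and 79.6 CPM in Prmt3f/f and at 132, 65.6 and 75.8 CPM in Prmt3LKO tumors, which overlap, and 71.5% of its stretches of 100 bases occur in other genes.

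Ugt1a2 (chr1:88200601-88218997, plus strand) was a gene of few counts, with 15, 1 and 1 reads in Prmt3f/f and 56, 62 and 45 reads in Prmt3LKO tumors, or 0.693, 0.0467 and 0.0352 CPM against 3.2, 2.8 and 2.26 CPM. All 3 Prmt3LKO tumors were above all 3 Prmt3f/f tumors, and only through them did the gene pass the filter on low counts. The summed counts were 163 against 17 reads. Relative to the TMM-scaled library sizes, this gave a ratio of 11.5, with an exact 95% confidence interval of 6.97 to 20.3. The interval covers counting error only. Without Prmt3f/f replicate 7 the ratio was 68.2 (18.6 to 568). The log2 fold change was 3.44 with an SE of 0.88 (unadjusted p = 0.00483, adjusted p = 0.592 by edgeR). DESeq2 gave an adjusted p of 0.0204, the sole call of a member under any setting tried, beside 0.0648% of all genes tested that DESeq2 called higher and 0.31% that it called lower.

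Kidney markers lay higher in Prmt3LKO tumors as a group, as did Ugt1a2 and Ugt1a6a. Of 9 kidney markers 4 were tested. Of these, 3 (Kap, Slc34a1 and Umod) were higher in Prmt3LKO tumors at an unadjusted p under 0.05, beside 2.2% of all genes tested. Slc34a1, with 3, 3 and 2 reads in Prmt3f/f tumors, and Umod, with 7, 8 and 6, passed the filter only through the Prmt3LKO tumors. The filter thus favored a higher level in Prmt3LKO tumors for Slc34a1 and Umod. The share of 2.2% is therefore no fair background for a count that includes them. Lrp2, the other marker tested, overlapped between genotypes, with a log2 fold change of 0.11. The 9 summed to between 3.60 and 4.95 CPM in Prmt3f/f and between 9.50 and 13.6 CPM in Prmt3LKO tumors. Within a genotype the order of tumors differed in part. The sum was highest in Prmt3LKO replicate 93, where Ugt1a6a was lowest of that group, at 109 CPM. It was lowest in Prmt3f/f replicate 7, where Ugt1a2 was highest of that group, at 0.692 CPM. Prmt3LKO replicate 94 was lowest of its group in the sum and in Ugt1a2. Slc22a6 and Slc22a8, transporters of the proximal tubule, had no count in any Prmt3f/f tumor and between 0.0503 and 0.286 CPM in Prmt3LKO tumors. Of 6 intestine markers 3 were tested and 1, Vil1, was higher at an unadjusted p under 0.05, with Muc2 and Alpi at 0 in all tumors. The part of other tissues in the levels of Ugt1a2 and Ugt1a6a was not tested.

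The sharing of exons limits every Ugt1a value. Between 35.1% (Ugt1a6a) and 71.5% (Ugt1a6b) of the stretches of 100 bases in each Ugt1a transcript occur in other genes, 62.9% for Ugt1a2, and the rule by which reads of the shared exons were assigned is not given in the sources used here. With the 9 genes summed, the locus was at 605, 649 and 840 CPM in Prmt3f/f and 816, 561 and 963 CPM in Prmt3LKO tumors. Its log2 fold change was 0.16 (95% confidence interval -0.43 to 0.75), and the genotypes overlapped. Ugt1a8 lay the other way from Ugt1a2, with 6, 5 and 4 reads in Prmt3f/f tumors and 0 in each Prmt3LKO tumor. Against a limit of 3 counts over the Prmt3LKO group, this is 4.16-fold lower. That value takes the 15 reads of the Prmt3f/f group as exact and does not cover their counting error or the spread between tumors. Ugt1a8 did not pass the filter.

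Ugt1a9, Ugt2b1, Ugt2b38 and the Ugt3a genes varied between tumors and not by genotype. Ugt1a9 was at 30.7, 30.2 and 84.2 CPM in Prmt3f/f and at 50.8, 11.4 and 145 CPM in Prmt3LKO tumors, a range of 12.8-fold whose ends were both Prmt3LKO tumors. It holds the same HNF1-like letters as Ugt1a1, which varied 2.08-fold. Ugt2b1 was at 37.3 CPM in Prmt3f/f replicate 7 and between 120 and 306 CPM in the others. Ugt2b38 was at 1.43 CPM there and between 1.85 and 17.6 CPM in the others, and shares 24.2% of its stretches with Ugt2b5. Ugt3a2 was lowest in Prmt3LKO replicate 93, at 42.4 CPM, and highest in replicate 94, at 185 CPM.

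Across the class, none of the 18 glucuronide genes tested was highest in Prmt3f/f replicate 7 and 7 (38.9%) were lowest in it, beside 23.6% of all genes tested. A further 6 (33.3%) were lowest in Prmt3LKO replicate 93, beside 15.7%. The glucuronide genes thus ranked the tumors differently from the glutathione genes. Nr1i3, which encodes CAR, was at 8.86 CPM in Prmt3f/f replicate 7 and 9.92 CPM in Prmt3LKO replicate 93, and between 40.5 and 53.7 CPM in the other 4 tumors. Cyp2e1, a pericentral hepatocyte gene, was at 166 and 244 CPM in these 2 tumors and between 1057 and 1330 CPM in the other 4. Of the 10 pericentral genes listed, 6 had their 2 lowest levels in these 2 tumors, beside 11.5% of all genes tested. The same held for 6 of 9 periportal genes, 5 of 9 male-biased genes and 7 of 15 regulators tested, so it was not particular to pericentral genes. Among the pericentral genes, Cyp1a2, at 309 CPM, and Lect2, at 127 CPM, were high in Prmt3f/f replicate 7, and Tbx3 was highest in Prmt3LKO replicate 93. The genes named here were picked with their values in view, and their part in the levels of the Ugt genes was not tested.

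The 9 genes listed for the supply of UDP-glucuronate, hexokinases among them, summed to between 901 and 1237 CPM in Prmt3f/f tumors. In Prmt3LKO tumors they summed to between 1256 and 1343 CPM, which does not overlap by a narrow margin. Ugp2 made a large part of each sum, and the sum without it was not tested. Ugp2, which makes UDP-glucose, was at 557, 480 and 474 CPM in Prmt3f/f and 709, 673 and 589 CPM in Prmt3LKO tumors. The difference of Ugp2 was 0.38 on the log2 scale with an SE of 0.17 (unadjusted p = 0.0601, adjusted p = 0.774 by edgeR). Hk1, a hexokinase, lay lower without overlap, between 9.56 and 10.9 CPM in Prmt3f/f and between 7.22 and 9.35 CPM in Prmt3LKO tumors, and the other 7 overlapped. Thus 1 of 9 genes lay lower without overlap and 1 higher, beside 6.6% and 5.56% of all genes tested. Of the 9 genes, all tested, Hk2 alone had an unadjusted p under 0.05, beside 2.2% of all genes tested that lay higher. Hk2 was at 4.34 ± 0.963 CPM in Prmt3f/f and 8.89 ± 4.50 CPM in Prmt3LKO tumors (SD, n = 3 each), with an adjusted p of 0.737 by edgeR. Ugdh, which oxidizes UDP-glucose to UDP-glucuronate, was at 311, 95.4 and 169 CPM in Prmt3f/f and 223, 217 and 281 CPM in Prmt3LKO tumors. The order of Ugdh in the Prmt3f/f tumors, with replicate 7 highest and 66 lowest, was that of most glutathione genes.

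**Figure D3:**
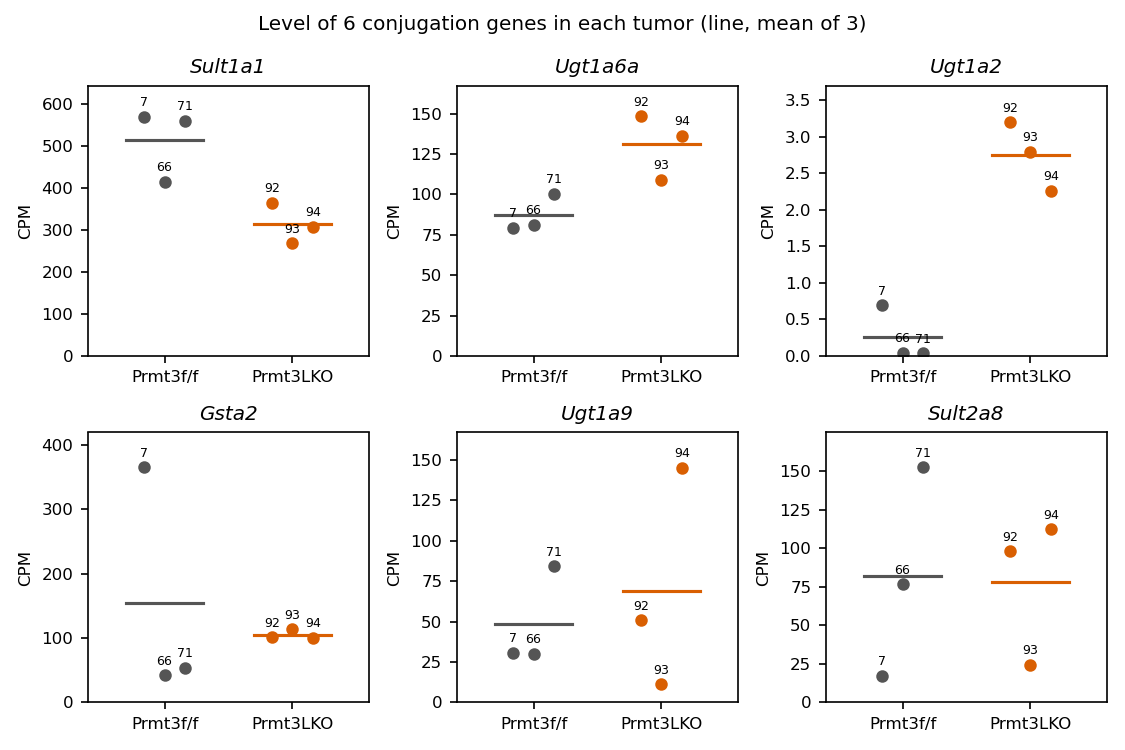
CPM of Sult1a1, Ugt1a6a, Ugt1a2, Gsta2, Ugt1a9 and Sult2a8 in each tumor, with the replicate number beside each point, the genotype on the horizontal axis and a line at the mean of 3 tumors. The genotypes do not overlap in the upper 3 genes and overlap in the lower 3, where 1 or 2 tumors set the range.

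Sulfate conjugation was led by Sult1a1, the main phenol sulfotransferase of liver, with a mean of 136 FPKM, followed by Sult1d1 with 30.0 FPKM and Sult2a8 with 22.4 FPKM. Sult1a1 (chr7:126672865-126676432, minus strand) was at 570, 416 and 561 CPM in Prmt3f/f replicates 7, 66 and 71 and at 365, 269 and 308 CPM in Prmt3LKO replicates 92, 93 and 94. The highest Prmt3LKO tumor was below the lowest Prmt3f/f tumor, which makes the means 516 ± 86.4 and 314 ± 48.5 CPM (SD, n = 3 each). The log2 fold change was -0.72 with an SE of 0.20, which is 0.609-fold (unadjusted p = 0.00887, adjusted p = 0.606 by edgeR). The 6 fits that each lack 1 tumor gave -0.85 to -0.61. Only 2.2% of the stretches of its transcript occur in another gene, so that shared sequence touches Sult1a1 little.

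Leukocyte markers were lower in Prmt3LKO tumors as a group, as was Sult1a1. Of 7 leukocyte markers tested, 5 were lower in Prmt3LKO tumors at an unadjusted p under 0.05, beside 4.37% of all genes tested. None were higher, beside 2.2%. Itgam, Ptprc and Lyz2 led by p. Ptprc, the common leukocyte antigen, was at 41.0, 39.6 and 39.7 CPM in Prmt3f/f and 19.1, 23.7 and 25.7 CPM in Prmt3LKO tumors. The 7 summed to between 277 and 829 CPM in Prmt3f/f and between 187 and 252 CPM in Prmt3LKO tumors. Lyz2 made a large part of each sum and overlapped between genotypes, at 160 CPM in Prmt3f/f replicate 71 and 163 CPM in Prmt3LKO replicate 94. Within a genotype the order of tumors differed in part. The sum was highest in Prmt3f/f replicate 66, where Sult1a1 was lowest of that group, at 416 CPM. Prmt3LKO replicate 93 was lowest of its group in the sum and in Sult1a1. Hepatocyte markers summed to between 143273 and 206899 CPM and between 160299 and 172398 CPM, which overlap. Of 4 cholangiocyte, 7 stellate and fibroblast and 6 endothelial markers tested, 0 had an unadjusted p under 0.05. Fewer cells of a type and less RNA per cell cannot be told apart in these tumors, and the part of leukocytes in the level of Sult1a1 was not tested.

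The other sulfotransferases overlapped between genotypes. Sult1d1, which sulfates catecholamines, was at 33.1, 89.9 and 88.6 CPM in Prmt3f/f and at 96.9, 53.9 and 104 CPM in Prmt3LKO tumors. Sult2a8, which sulfates bile acids, was at 17.2, 76.6 and 152 CPM in Prmt3f/f and at 97.9, 24.4 and 112 CPM in Prmt3LKO tumors, and so lowest in Prmt3f/f replicate 7 and Prmt3LKO replicate 93, as were Nr1i3 and Cyp2e1. Sult4a1, known from neurons, was at 12.0, 3.83 and 7.07 CPM in Prmt3f/f and at 14.9, 19.7 and 2.36 CPM in Prmt3LKO tumors. Sult1e1, which sulfates estrogen, was between 1.16 and 5.01 CPM in all tumors. Their log2 fold changes were 0.27 (95% confidence interval -0.67 to 1.21), -0.07 (-1.86 to 1.72), 0.69 (-0.93 to 2.31) and 0.64 (-0.68 to 1.95).

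Genes that make, carry and use up PAPS, the sulfate donor, were listed with 7 members of 8, all tested, of which 0 had an unadjusted p under 0.05. Papss2, a PAPS synthase, was at 87.2, 165 and 195 CPM in Prmt3f/f and 179, 107 and 146 CPM in Prmt3LKO tumors, again lowest in Prmt3f/f replicate 7 and Prmt3LKO replicate 93. Papss1, also a PAPS synthase, lay lower without overlap, at 20.4, 21.9 and 18.5 CPM in Prmt3f/f and 17.4, 17.7 and 15.8 CPM in Prmt3LKO tumors. Impad1 lay higher without overlap. This is 1 of 7 genes each way, beside 6.6% of all genes tested lower and 5.56% higher. The 8 exporters of conjugates summed to between 1088 and 1291 CPM in Prmt3f/f and between 1387 and 1487 CPM in Prmt3LKO tumors, which do not overlap, while each exporter overlapped on its own. Abcc2 and Abcc3 made most of each sum, and the sum without them was not tested. How often such a sum parts the groups among other genes was not tested either. Of these 8 exporters, 5 deconjugating genes and 15 regulators tested, 0 had an unadjusted p under 0.05. The same held for 10 pericentral, 9 periportal, 9 male-biased and 8 female-biased liver genes tested.

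Summed over all members of a class, glutathione conjugation was at 8191, 4457 and 5662 CPM in Prmt3f/f and 7953, 5512 and 6531 CPM in Prmt3LKO tumors, which overlap (exact two-sided permutation p = 0.8). Glucuronide conjugation was at 2259, 2106 and 2793 CPM in Prmt3f/f and 2936, 1851 and 3123 CPM in Prmt3LKO tumors, which also overlap (exact p = 0.8). Sulfate conjugation was at 658, 607 and 831 CPM in Prmt3f/f and 602, 390 and 554 CPM in Prmt3LKO tumors, where all 3 Prmt3LKO tumors were below all 3 Prmt3f/f tumors. Its difference was -0.45 on the log2 scale, and the exact two-sided p of 0.1 is the smallest that 3 against 3 tumors can give. The difference was -0.26 without Prmt3LKO replicate 93. Without Sult1a1 the difference of the sulfate sum was 0.21 (exact p = 0.7), so the sum followed that 1 gene.

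**Figure D4:**
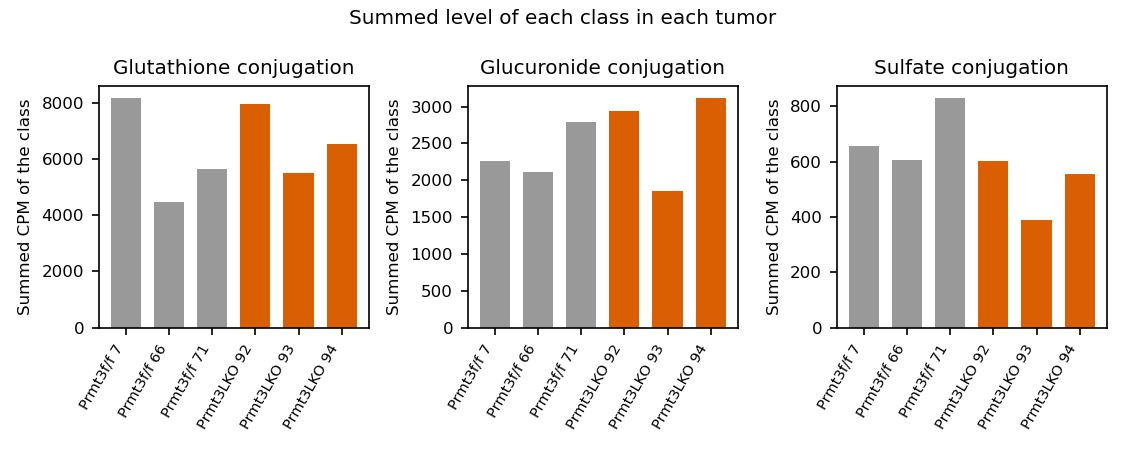
Summed CPM of all members of each class in each tumor, with gray bars for Prmt3f/f and orange bars for Prmt3LKO tumors and an axis that starts at 0. The genotypes overlap for glutathione and glucuronide conjugation, while sulfate conjugation is between 607 and 831 CPM in Prmt3f/f and between 390 and 602 CPM in Prmt3LKO tumors.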

How the data were processed

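RNA was sequenced from 6 DEN-CCl4 liver tumors, 3 of each genotype, as paired-end reads of mRNA. Per the labels and methods, the authors aligned reads to GRCm38 with HISAT2 2.0.4 and also list StringTie 1.3.0 and bcl2fastq 2.19. The authors deposited 1 table that gives each gene a read count and an FPKM in every tumor. The counts are whole numbers and not normalized, and the deposited FPKM are the same counts per length of the gene and per total of the library. The annotation release, the counting rule and the use of strand are not given in the sources used here. All 12 value columns belong to these tumors.

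Counts were filtered with filterByExpr (minimum count 10, minimum total 15), scaled by TMM and fitted in edgeR 4.0.16 (R 4.3.3) by quasi-likelihood, and p-values of all 13892 genes tested were adjusted after Benjamini and Hochberg. A call needed an adjusted p below 0.05 and a change of 2-fold or more upward, or to 0.5-fold or less. Log2 CPM were taken with a prior count of 2. Sums of a class were compared by the exact permutation test. No 2 libraries agreed within sampling noise. DESeq2 1.42.0 and limma 3.58.1 were used as alternatives, with log2(FPKM + 1) among them. Shared sequence was counted as stretches of 100 bases of the longest GENCODE vM21 transcript of a gene that occur in transcripts of another gene. Motifs were chosen after levels had been seen.

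The members and lists were chosen with earlier results of these data known. The genes named were Prmt3, the 4 tested members of each class with the highest mean CPM, members with an unadjusted p under 0.05, the 2 of each class with the widest range among those averaging 1 CPM or more, and up to 3 genes of each other list with an unadjusted p under 0.05. Other genes were named after their values were seen. A further kidney marker is not reported here.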

Additional observations from a re-analysis of the deposited data

How the results depend on the processing

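With 3 tumors in each group, the SE of a log2 fold change had a median of 0.33 over the 50 members tested, and levels of 3 counts or fewer were at the limit of detection. No paired analysis was possible because the groups share no replicate numbers. DESeq2 called 1 member higher (Ugt1a2), where 66 of the 13892 genes tested had an adjusted p below 0.05, and 0 members were called in either direction under every other setting. Of 216 values of 18 named genes under the alternatives, 182 kept their direction and their side of the threshold, 32 changed sign in 12 genes, and 2 passed it under DESeq2 (Prmt3 and Ugt1a2). Prmt3, Ugt1a2, Ugt1a6a, Gstp1, Sult1a1 and Sult4a1 kept their direction throughout.

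The median log2 fold change of sulfate conjugation was 0.37 with no filter beyond 1 count, 0.38 among genes averaging 1 CPM or more and 0.37 with limma-voom, and lay between 0.089 and 0.40 with each tumor left out. The limit of 1 CPM left out Sult2a1 and Sult2b1, with means of 0.832 and 0.807 CPM and log2 fold changes of -0.63 and -0.43. That median was thus taken over fewer genes. The cause of the other shifts was not tested. The difference of the summed sulfate level was 0.21 without Sult1a1, its most abundant member. With each tumor left out, the difference of the summed level was between -0.047 and 0.39 for glutathione and between -0.023 and 0.35 for glucuronide conjugation, below 0 without Prmt3f/f replicate 66 and without Prmt3LKO replicate 94 respectively. It was between -0.58 and -0.26 for sulfate conjugation, nearest 0 without Prmt3LKO replicate 93.

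Other log2 fold changes that changed sign were small or rested on single tumors. Library size without TMM gave -0.016 for Ugt2b34, -0.026 for Ugt2b36 and -0.011 for Mgst1. Limma-voom gave -0.013 for Ugt2b36, 0.45 for Gsta1, 0.14 for Gsta2 and 0.18 for Sult2a8. FPKM gave -0.012 for Ugt2b34, -0.041 for Ugt2b36, 0.32 for Gsta1, 0.12 for Gsta2 and 0.091 for Sult2a8. With each tumor left out, the range was -0.34 to 0.10 for Ugt1a1, -0.64 to 1.18 for Ugt1a9, -0.15 to 0.16 for Ugt2b34, -0.11 to 0.22 for Ugt2b36, -0.0075 to 0.44 for Ugt2b5, -0.81 to 1.44 for Gsta1, -0.99 to 1.12 for Gsta2, -0.031 to 0.52 for Gsta3, -0.17 to 0.24 for Mgst1, -0.063 to 0.56 for Gstm1, -0.078 to 0.51 for Sult1d1 and -0.56 to 0.74 for Sult2a8.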
